A study of Mus musculus with 32 samples.

Results

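IGF2BP3 eCLIP in CD11b+ leukemic cells gave 1631 binding sites that were found in both biological replicates and at which no Lin- library had a peak. They were chosen by overlap alone. A filtered peak of CD11b+ replicate 1 had to share at least 1 nt, on the same strand, with a filtered peak of replicate 2, and could overlap no unfiltered eCLIP peak of any of the 6 Lin- libraries. Replicate 1 had 8521 filtered peaks, of which 3851 were also found in replicate 2, and 2220 of these overlapped a Lin- peak and are called shared sites here. The 10 eCLIP libraries of the series hold 74378 filtered peaks in all.

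The series comprises 32 mouse libraries, of which 10 are eCLIP, 10 are size-matched inputs and 12 are RNA-seq. CD11b+ cells gave 2 biological and 2 technical eCLIP libraries, and Lin- cells gave 3 and 3. According to the study, the eCLIP cells were WT/MLL-Af4, that is, Igf2bp3 was intact and the MLL-Af4 fusion had been introduced with an MSCV retrovirus. CD11b+ cells were positively selected on magnetic columns from splenic tumors of lethally irradiated mice that had received transduced donor bone marrow, while Lin- cells were lineage-depleted bone marrow cells transduced with the same fusion, selected in G418 and kept in culture. The cell types thus also differ in their source (animal or culture), and these cannot be told apart. The deposited names of the CD11b+ eCLIP libraries begin with bm, so the tissue of these libraries is not settled. The labels do not say which technical library belongs to which biological replicate. RNA-seq covered 3 WT and 3 Igf2bp3 knockout (I3KO) libraries of each cell type.

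IGF2BP3 is an oncofetal RNA-binding protein with RRM and KH domains. It is best known for binding CA-rich and m6A-marked stretches in mRNAs, mostly in 3′UTRs, and for raising the stability or translation of these mRNAs. Its gene is expressed in leukemia with MLL rearrangements. eCLIP crosslinks proteins to RNA with UV light, pulls down the protein with its RNA fragments and maps these. The program CLIPper then calls peaks of reads, and the size-matched input, taken from the same lysate without selection for the protein, shows which peaks also arise without the antibody.

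The cell label was checked against marker genes by their rank among all genes of the RNA-seq table of each cell type, where 100 is the highest mean normalized count over WT and I3KO libraries. The tables were normalized separately, so only ranks are set side by side. In CD11b+ cells, 8 of 9 myeloid markers ranked at 89.8 or higher, and in Lin- cells these ranked lower, at 69.3 to 99.7. Itgam, which encodes CD11b itself, was the exception, with a mean of 17.0 normalized counts and a rank of 41.9, and it had no row in the Lin- table. The progenitor genes Kit, Flt3 and Cd34 ranked at 76.6, 69.1 and 86.2 in CD11b+ cells, against 97.4, 98.4 and 98.3 in Lin- cells. Gata2 ranked at 73.5 against 87.5. The other progenitor markers did not separate the cell types in this way. Myb ranked at 99.9 against 99.7, Elane at 99.9 against 99.3 and Mpo at 99.99 in both. Hbb-bs, a globin gene of red cells, ranked at 83.7 against 49.7. The part of other cells in the sites was not tested.

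The sites were narrow, with a median width of 54 nt and a range of 2 to 208 nt. CLIPper gives the number of reads in each peak in the peak's name, and the sites had a median of 10 reads in replicate 1, with a range of 3 to 499. Some sites adjoined each other, so that the 1631 sites formed 1533 separate stretches, and 1623 positions were distinct since some positions are listed under 2 genes. Because peaks of so few reads can be missed, the absence of a Lin- peak does not show absence of binding.

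Many of these sites were simple repeats. GTGTGT or TGTGTG, read 5′ to 3′ on the strand of the host gene, occurred in 533 of 1631 sites (32.7%, 95% Wilson interval 30.4 to 35), GAGAGA or AGAGAG in 309 (18.9%, 17.1 to 20.9), and ACACAC or CACACA, the CA-rich element known for IGF2BP3, in 204 (12.5%, 11 to 14.2). Together, 897 sites (55.0%) held at least 1 of these 6-mers. Only 3 sites held both GT and CA repeats. The intervals cover counting error only, since eCLIP reads and adjoining sites are not independent. The CA 6-mers were chosen for IGF2BP3, and the GT and GA 6-mers were chosen after the sequences had been seen. The 2 sites with the most 6-mers of each kind (GT, GA and CA, in this order), chosen from sites with a filtered peak in all 4 CD11b+ libraries and outside UTRs, are printed with the repeat 6-mers in capitals, on the transcribed strand of GRCm38 (mm10).
Neil3 intron, chr8:53596703-53596803, minus strand: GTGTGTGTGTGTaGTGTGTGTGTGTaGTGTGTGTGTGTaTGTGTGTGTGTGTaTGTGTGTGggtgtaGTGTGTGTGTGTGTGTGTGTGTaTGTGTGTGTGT
Scg3 intron, chr9:75656496-75656563, minus strand: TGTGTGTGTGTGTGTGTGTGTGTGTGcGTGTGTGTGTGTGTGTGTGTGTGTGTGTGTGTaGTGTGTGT
Relt intron, chr7:100862559-100862647, minus strand: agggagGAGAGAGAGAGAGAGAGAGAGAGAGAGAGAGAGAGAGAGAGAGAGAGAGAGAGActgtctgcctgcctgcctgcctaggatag
Nrros intron, chr16:32159581-32159642, minus strand: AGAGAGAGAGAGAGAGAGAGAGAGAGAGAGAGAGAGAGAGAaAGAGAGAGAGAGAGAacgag
Ms4a6c intron, chr19:11479663-11479755, plus strand: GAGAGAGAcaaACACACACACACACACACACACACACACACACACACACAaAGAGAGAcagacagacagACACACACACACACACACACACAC
H13 intron, chr2:152692716-152692794, plus strand: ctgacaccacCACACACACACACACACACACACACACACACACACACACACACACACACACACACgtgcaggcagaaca

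Read counts at these repeats were moderate. The Neil3 site had 14 and 19 reads in biological replicates 1 and 2, and 19 and 26 in technical replicates 3 and 4. The site in Nrros, which encodes a regulator of TGF-β and reactive oxygen in myeloid cells, had 12, 15, 18 and 23 reads in the same order. For Ms4a6c, a myeloid membrane gene, these were 24, 21, 17 and 8. Technical replicate 4 was the highest of the libraries at Neil3 and Nrros and the lowest at Ms4a6c. The Neil3 site lay 8 nt from a Lin- peak, and the other sites printed above were at least 357 nt from one.

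The repeats were long. Among sites with the GT 6-mer the longest uninterrupted GT run had a median of 20 nt, with a maximum of 58 nt, and 282 of 533 sites had a run of at least 20 nt. The median CA run was also 20 nt, with a maximum of 56 nt. GA runs were shorter, with a median of 10 nt. Windows of the same length placed 200 nt to either side of each site held GT 6-mers in 7.88%, GA 6-mers in 5.27% and CA 6-mers in 3.10% of 3262 windows, so the sites held them 4.15, 3.59 and 4.04 times as often. When all 6-mers were ranked by the difference between sites and these windows, GTGTGT and TGTGTG came first (32.2% and 32.0% of sites), GAGAGA and AGAGAG next (17.3% and 17.0%), and ACACAC 7th with 12%. Purine-rich 6-mers such as GGGAGG (13.8% of sites, 4.26% of windows) followed. In the reference genome, 1083 sites (66.4%) had at least 0.5 of their bases soft-masked as repeats, against 22.0% of the flanking windows. The headers of the peak lists name a repeat filter before mapping, and the study describes its eCLIP tracks as coverage by unique reads, but neither says how a read that fits several simple repeats was placed. The part of this in the result was not tested.

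**Figure D1:**
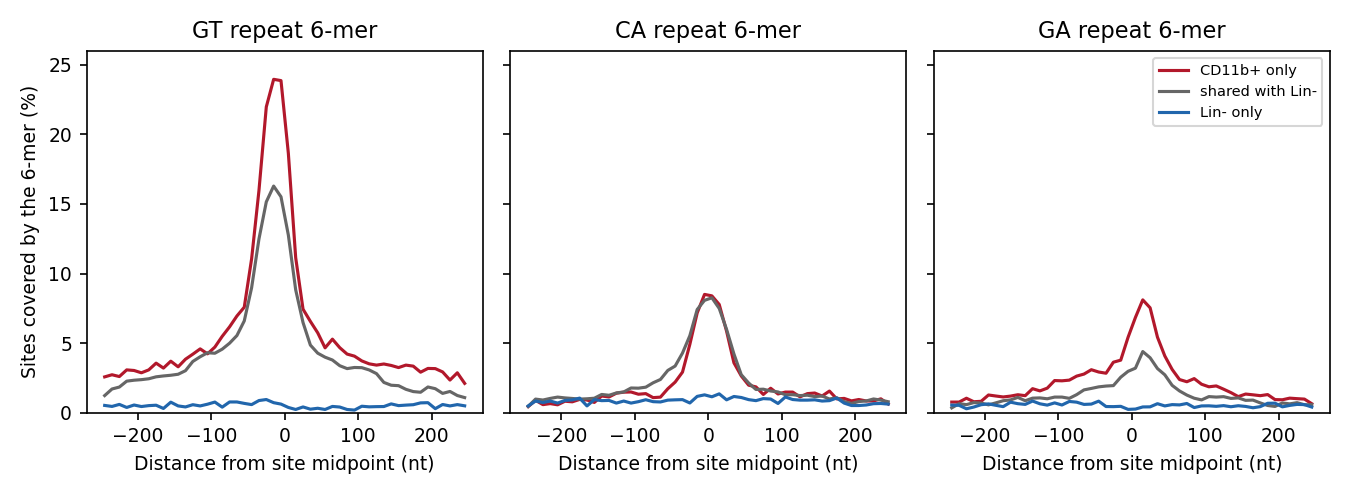
Share of sites (y axis, %) covered by a GT, CA or GA repeat 6-mer at each distance from the site midpoint (x axis, nt, in bins of 10 nt) for CD11b+ only sites (red), shared sites (grey) and Lin- only sites (blue). GT 6-mers covered 23.9% of CD11b+ only sites 15 nt before the midpoint, against 16.3% of shared sites and at most 0.956% of Lin- only sites.

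Sites shared with Lin- cells held GT 6-mers in 22.8% (95% interval 21.1 to 24.6), GA 6-mers in 9.19% (8.06 to 10.5) and CA 6-mers in 11.3% (10 to 12.6) of 2220 sites. At least 1 of these 6-mers occurred in 37.7% of shared sites. Among the 4670 filtered peaks of CD11b+ replicate 1 not found in replicate 2, this share was 29.8%. The same rule applied to Lin- cells (biological replicates 1 and 2, no unfiltered CD11b+ peak) gave 1371 Lin- only sites, of which 3.43% held GT, 1.46% GA and 2.92% CA 6-mers. In Lin- only sites, GT and CA 6-mers were about as frequent as in their flanking windows (ratios of 1.06 and 1.13). The share of sites with at least 0.5 of their bases soft-masked was 48.9% for shared and 8.61% for Lin- only sites. The plot of repeat coverage by distance shows the repeats centred on the CD11b+ only and shared sites.

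To ask whether the repeats were a property of single libraries, the share of all filtered peaks with each 6-mer was taken per library. GT 6-mers occurred in 20.3% and 25.2% of the peaks of CD11b+ biological replicates 1 and 2, and in 24.9% and 31.3% of those of technical replicates 3 and 4. In the 6 Lin- eCLIP libraries the share was between 6.25% and 8.04%, and in the 10 inputs between 0.870% and 2.29%. The CD11b+ and Lin- eCLIP libraries did not overlap. GA 6-mers behaved alike, with 10.1% to 13.9% in CD11b+ and 1.66% to 3.82% in Lin- eCLIP libraries. CA 6-mers varied more among CD11b+ libraries, from 8.90% in biological replicate 1 to 23.7% in technical replicate 4, and overlapped the Lin- libraries, at 4.65% to 12%. The inputs were deduplicated and called with other settings than the eCLIP libraries, so the levels of the inputs and of eCLIP are not strictly comparable.

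**Figure D2:**
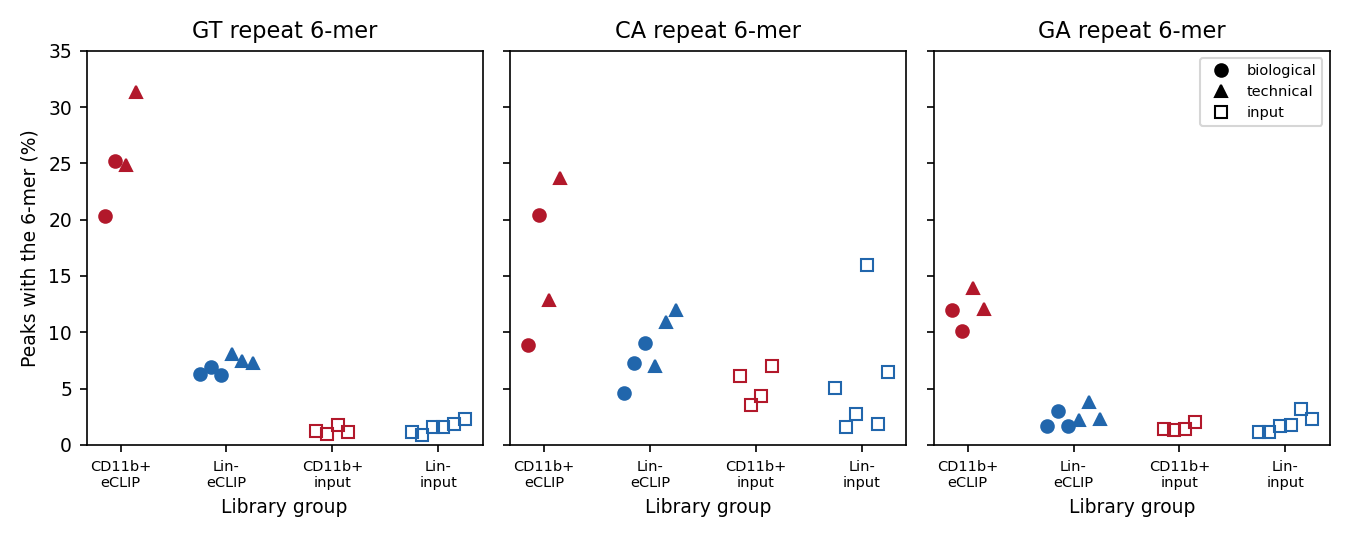
Share of peaks with a GT, CA or GA repeat 6-mer (y axis, %) in each library, for filtered eCLIP peaks and input peaks of CD11b+ (red) and Lin- cells (blue). Circles are biological, triangles technical and open squares input libraries. GT shares of CD11b+ eCLIP libraries (20.3% to 31.3%) lie above those of all Lin- eCLIP libraries (6.25% to 8.04%), while CA shares overlap.

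A comparison over biological libraries used cell-type-only peaks, which are filtered peaks that overlap no unfiltered eCLIP peak of the other cell type. These peaks include the 1631 sites and so are not independent of them. GT 6-mers occurred in 26.6% ± 7.35 (SD, n = 2) of CD11b+ and 4.04% ± 0.253 (SD, n = 3) of Lin- cell-type-only peaks. GA 6-mers occurred in 13.6% ± 1.13 against 1.32% ± 0.201. For CA 6-mers the shares were 14.7% ± 9.86 and 3.84% ± 1.13, with 7.75% and 21.7% in the CD11b+ replicates. In each of these measures all CD11b+ values lay above all Lin- values, and the two-sided exact permutation test gave p = 0.1, which is the smallest that 2 libraries against 3 allow. The GT and GA 6-mers had been chosen after the sequences of the sites were seen, so the test lends them no support. For CA the values overlapped before the exclusion. Over all filtered peaks, CD11b+ biological replicate 1 had 8.9% and Lin- biological replicate 3 had 9.06%. Adjusted by Benjamini-Hochberg over the 3 measures planned, the exact permutation p of CA was 0.15, and over all 6 measures tested that of GT, GA and CA was 0.12. None passed 0.05, nor could they have at this number of libraries.

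Most sites were intronic. The midpoint lay in an intron of the host gene in 1330 sites (81.5%, 95% interval 79.6 to 83.4), in a 3′UTR in 223 (13.7%, 12.1 to 15.4), in coding sequence in 17 (1.04%), in a 5′UTR in 18 (1.10%) and in another exon in 23 (1.41%). The other 20 sites lay outside the annotated span of their gene (9) or belonged to a gene that the annotation used does not hold (11). Shared sites were less concentrated in these parts, with 75.8% in introns, 8.47% in 3′UTRs and 8.87% in other exons. The 4670 filtered peaks of replicate 1 not found in replicate 2 had 77.8% in introns and 13.4% in 3′UTRs. The 3′UTR share was thus not particular to the sites. Lin- only sites had 61.9% in introns, 2.41% in 3′UTRs and 25.6% in coding sequence. GT 6-mers were found in 34.1% of the intronic sites and 30.0% of those in 3′UTRs, and CA 6-mers in 12.9% and 13.5%. GA 6-mers were found in 20.9% (95% interval 18.8 to 23.2) of the intronic sites and 12.1% (8.46 to 17) of those in 3′UTRs, and these intervals did not overlap. In cell-type-only peaks per library, the 3′UTR share was 10.1% ± 6.02 (SD, n = 2) in CD11b+ and 2.67% ± 1.48 (SD, n = 3) in Lin- cells, with no overlap and an exact permutation p of 0.1 (adjusted p = 0.15 over the 3 measures planned). Within CD11b+ cells it was 14.4% in replicate 1 and 5.89% in replicate 2. The intron share, 84.3% ± 7.92 and 71.4% ± 17.8, overlapped between the cell types (exact permutation p = 0.6).

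Few sites lay close to a splice site. Only 171 (10.5%, 95% interval 9.09 to 12.1) had their midpoint within 100 nt of a splice site of the host gene, and the median distance was 1149 nt over the 1600 sites with a spliced host. In the CD11b+ inputs, 10% to 11.6% of all peaks lay within 100 nt of a splice site, though inputs were called with other settings. The share of the sites was thus near that of the inputs. Of all sites, 5.46% were intronic within 100 nt before a 3′ splice site and 4.78% intronic within 100 nt after a 5′ splice site. Bins of 25 nt centred 37.5 and 12.5 nt before the 3′ splice site held 2.64% and 2.39% of sites. Those centred 62.5 and 87.5 nt before it held 0.307% and 0.613%. Shared sites were within 100 nt of a splice site in 24.5% (22.7 to 26.3) of cases. Among Lin- only sites the share was 72.5% (70.1 to 74.8), with a median distance of 24 nt, and 47.5% were in the last 100 nt of an intron. Over biological libraries, 14.5% ± 2.55 (SD, n = 2) of CD11b+ and 72.4% ± 15.4 (SD, n = 3) of Lin- cell-type-only peaks were within 100 nt of a splice site, again without overlap and with an exact permutation p of 0.1. This measure was added after the sites had been seen. The CD11b+ replicates had 16.3% and 12.7%, and the Lin- replicates 85.4%, 55.4% and 76.4%.

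**Figure D3:**
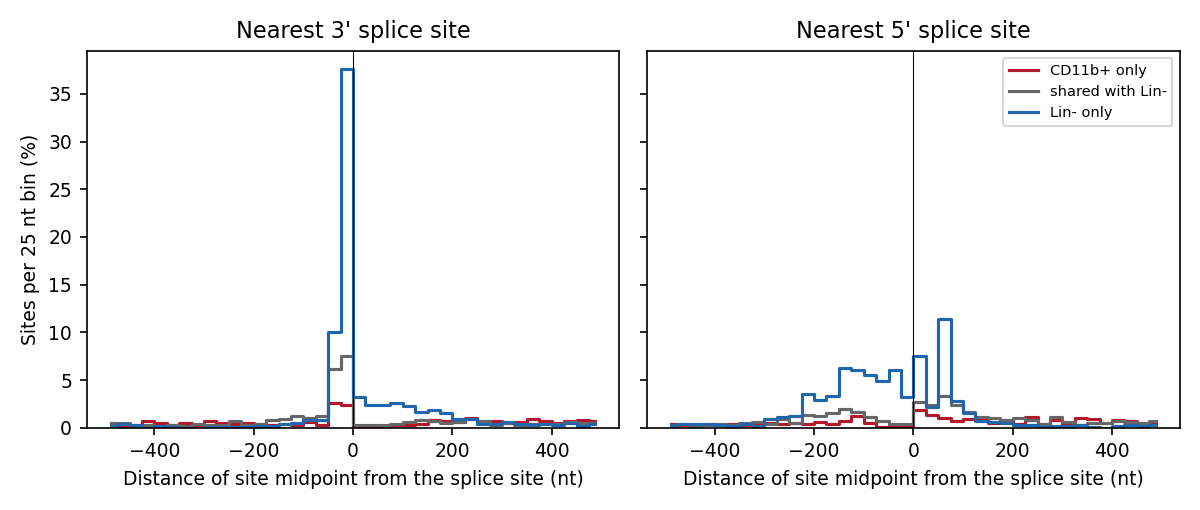
Distance of the site midpoint from the nearest 3′ (left) and 5′ (right) splice site of the host gene (x axis, nt, negative is upstream) against the share of sites per bin of 25 nt (y axis, %), for CD11b+ only (red), shared (grey) and Lin- only sites (blue). The Lin- only sites pile up just before the 3′ splice site, and the CD11b+ only sites, 10.5% of which lie within 100 nt of any splice site, do so little.

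The rule had not used the technical libraries of the same cell type. As technical replicates they are not independent of the biological libraries, so overlap with them is no independent check. A filtered peak in technical replicate 3 overlapped 1148 sites (70.4%, 95% interval 68.1 to 72.6), against 54.3% of all 8521 filtered peaks of replicate 1. In technical replicate 4 the number was 866 (53.1%, 50.7 to 55.5), against 35% of all. All sites, unlike all peaks, had by rule been found in 2 libraries already. Both technical libraries had a peak at 688 sites (42.2%) and neither at 305 (18.7%). For shared sites these were 66.9% and 10%. Sites with GT or GA 6-mers were found in both technical libraries in 51.6% and 52.4% of cases, those with CA in 45.1%, and those with no repeat 6-mer in 33.5%. No site overlapped a peak of any CD11b+ input (0 of 1631, upper limit of the Wilson interval 0.235%), and peaks overlapping the input had been filtered out beforehand. Peaks of single Lin- inputs overlapped between 0 and 4 sites.

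At the edge of the rule, the site nearest to a Lin- peak was in Rasgrp2 (chr19:6404478-6404522), which adjoined the peak with 0 nt between them. Sites in Zeb2 and Pstpip1 were 1 nt away. Just outside, reproducible peaks in Smg5, Dock2 and Fam117a overlapped a Lin- peak by 1 nt. In all, 128 sites (7.85%) lay less than 100 nt from a Lin- peak and 415 (25.4%) less than 1000 nt. The smallest overlap with replicate 2 was 1 nt, in 3 sites (Rbm14, BC005537 and Rgl2), and the median was 45 nt.

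CA 6-mers occurred in 12.5% of all sites and in 13.4% of the 688 sites with a filtered peak in all 4 CD11b+ libraries. The 10 sites with the smallest peak p in replicate 1 among those in all 4 libraries included 8 without a CA 6-mer. A pair of them, in an intron of Tex14, lay inside Rnu1a1, a gene of the U1 small nuclear RNA of the spliceosome. The stronger had 499, 506, 419 and 314 reads in replicates 1 to 4 and a Lin- peak 24 nt away, and the RNA-seq level of Tex14 itself was low (rank 48.2). In total 11 sites (0.674%) lay in genes of small RNAs, 3 of them in Rnu1a1, against 327 (14.7%) of shared sites. The 3′UTR site of Gpx3, which encodes a secreted glutathione peroxidase, had 146, 117, 107 and 58 reads, and Gpx3, with 4 sites, had no Lin- peak anywhere. Its rank was 96.7 in CD11b+ and 69.4 in Lin- cells. For the 3′UTR site of Cd33, a sialic acid receptor of myeloid cells, the reads were 107, 39, 115 and 21, so replicates 1 and 3 were higher than 2 and 4. The same order was seen at Snrnp70 (138, 22, 91 and 18 reads), which encodes a protein of U1 snRNP, at Taf15 (116, 17, 65 and 10) and at Psap, the prosaposin gene (80, 13, 47 and 5). Klf13, a zinc finger factor gene, had 79, 81, 56 and 40 reads at an intronic site without any of the repeats. Eif4g2, a translation initiation factor gene, had 134, 83, 124 and 29 in its 5′UTR.

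**Figure D4:**
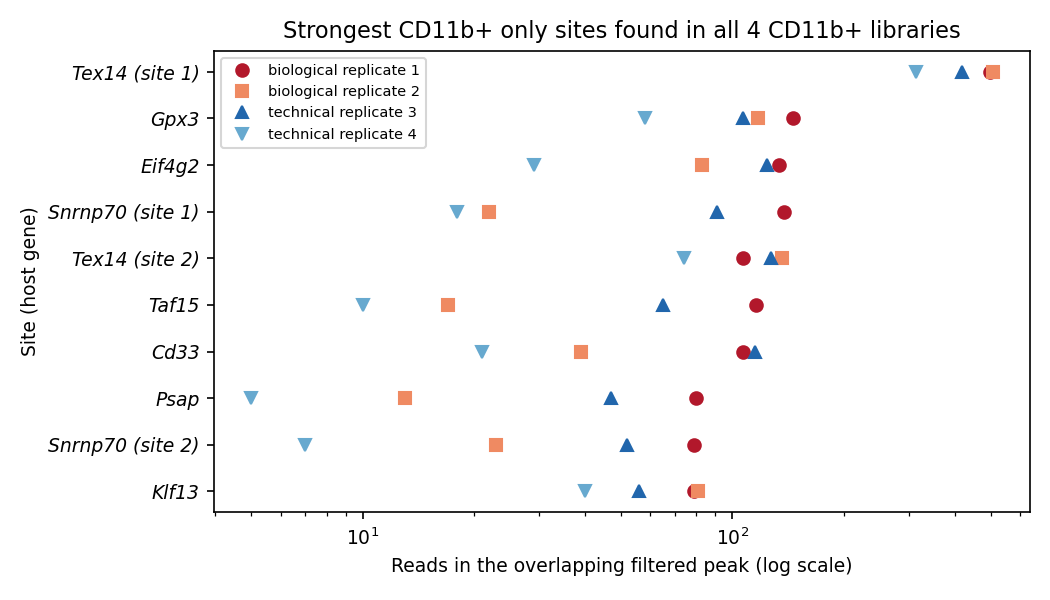
Reads in the overlapping filtered peak (x axis, log scale) of each of the 4 CD11b+ libraries for the 10 sites with the smallest p in replicate 1 that had a peak in all 4. Tex14 is the highest, with 314 to 506 reads, and at Psap the libraries range from 5 to 80 reads.

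The sites were spread over 1112 host genes, of which 1063 are protein-coding. A single site was found in 815 genes, 2 in 179 and 3 or more in 118, which held 458 sites. Of the sites, 69 (4.23%) lay in more than 1 annotated gene on their strand, so that their host is uncertain. Zeb2, a zinc finger transcription factor of myeloid and dendritic cells, had 16 sites in 10 stretches. Ncf4, a subunit of the phagocyte NADPH oxidase, had 12 sites in 5 stretches, and Dock2, an exchange factor for the GTPase Rac in blood cells, had 11 in 8. F630028O10Rik, annotated as an antisense transcript, followed with 10 sites in 6 stretches. Myh9, a non-muscle myosin, and Baz2b, a bromodomain protein, had 7 sites each. Zbtb7a, Wipf1 and Fam78b had 6 each, and Son and Vsir, the latter a checkpoint receptor of myeloid cells, had 5 each.

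These genes differed in what their sites were made of. Myh9 had 4 GT sites of 7 and Fam78b 5 of 6, and Wipf1 had GA 6-mers in 5 of 6. Baz2b held both kinds, 3 GT and 2 CA sites. The CA site of Baz2b printed here had 23 and 86 reads in replicates 1 and 2, and 14 and 51 in technical replicates 3 and 4. In contrast, none of the sites of Ncf4 and Dock2 held any of the repeat 6-mers, but some of their sites shared a longer stretch. The 12 letters cctaccactgtt occurred in 3 of the 6 Dock2 sites of at least 12 nt, and aggatgggggtg in 4 of 8 such Ncf4 sites. They are shown to set these against the short repeats of Baz2b, Myh9 and Fam78b, with the 6-mers in capitals where present.
Baz2b intron, chr2:60100760-60100824, minus strand: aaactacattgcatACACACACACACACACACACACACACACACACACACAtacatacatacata
Myh9 intron, chr15:77808602-77808648, minus strand: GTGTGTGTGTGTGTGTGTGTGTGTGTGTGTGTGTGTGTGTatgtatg
Fam78b intron, chr1:167005070-167005133, plus strand: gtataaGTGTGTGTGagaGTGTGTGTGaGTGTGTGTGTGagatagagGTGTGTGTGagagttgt
Dock2 intron, chr11:34681988-34682023, minus strand: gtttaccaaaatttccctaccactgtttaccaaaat
Dock2 intron, chr11:34682127-34682154, minus strand: ttcctaccactgtttacgaagagttttt
Dock2 intron, chr11:34683332-34683357, minus strand: ttcctaccactgtttatgaagatttt
Ncf4 intron, chr15:78256883-78256906, plus strand: gatgggggtgaggatgggggtgag
Ncf4 intron, chr15:78256926-78256949, plus strand: gtgaggatgggggtgaggatggag

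All 12 Ncf4 sites lay in 1 intron, within 579 nt, and 11 of them had a peak in all 4 CD11b+ libraries. The site at chr15:78256883-78256906 had 16 and 11 reads in the biological and 29 and 14 in the technical libraries. Ncf4 ranked at 98.6 in CD11b+ and 88.6 in Lin- cells, and carried 3 Lin- peaks that overlapped none of these sites. One of these peaks, with 15 reads, lay among the Ncf4 sites, 26 nt from the nearest. The 2 shared sites of Ncf4, with 99 and 27 reads in replicate 1, also lay among them. The largest Dock2 site by reads in replicate 2, at chr11:34681988-34682023, had 29, 135, 30 and 91 reads in replicates 1 to 4. Replicates 2 and 4 were higher there, the reverse of Cd33. Where sites adjoin, as in Ncf4, Dock2 and Zeb2, they can be overlapped by the same peak of another library, and its reads then stand for several sites. Dock2 ranked alike in both cell types (98.7 and 98.4). It had 13 shared sites and 26 Lin- peaks summed over the 6 libraries, and some of both lay among its CD11b+ only sites. Zeb2 also had 58 shared sites and 107 Lin- peaks summed over the 6 libraries, and ranked at 97.6 and 97.0. Fam78b, whose sites lay in 3 stretches, had no Lin- peak at all and a rank of 69.0 in CD11b+ and 63.2 in Lin- cells. Its site printed here had 27, 38, 18 and 12 reads.

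**Figure D5:**
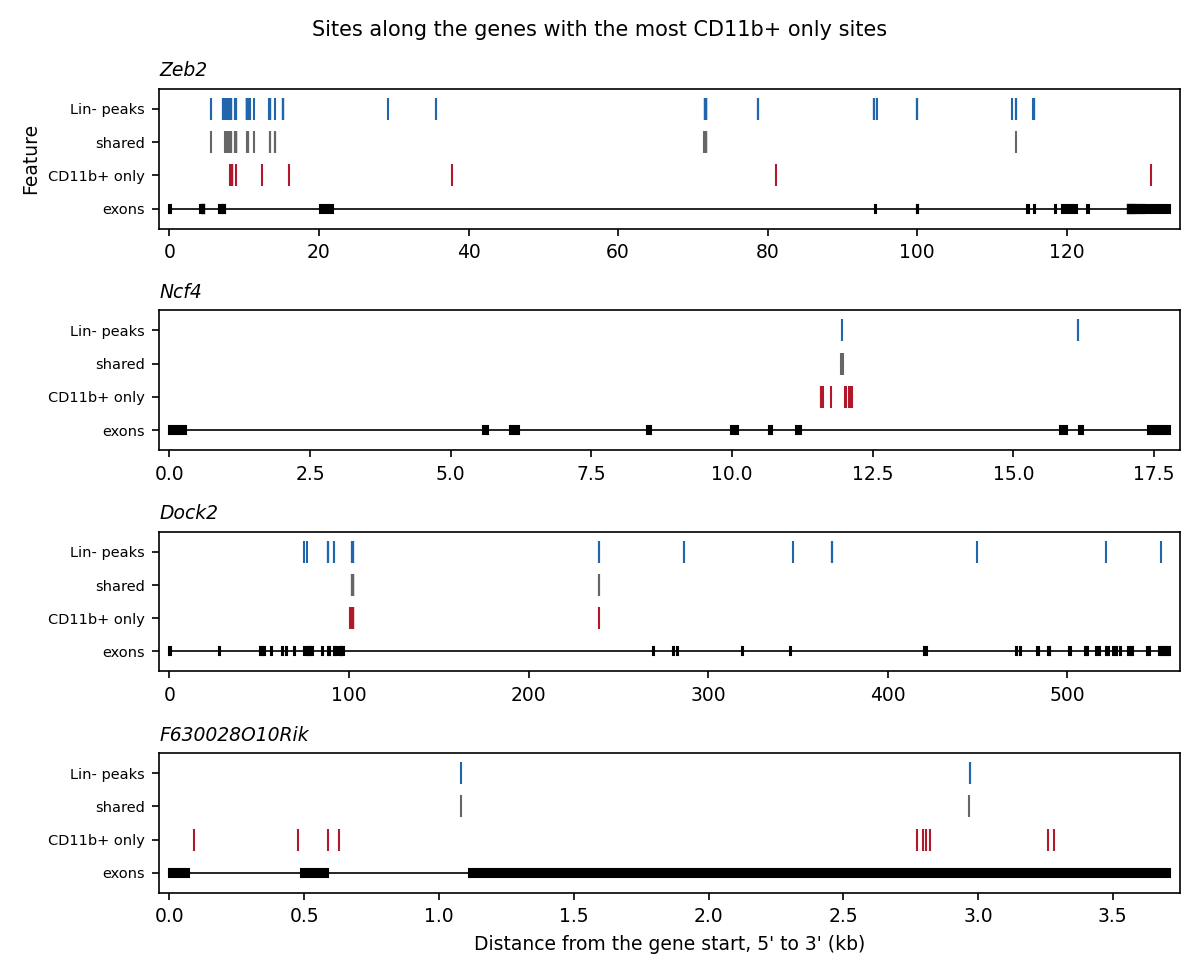
Position of CD11b+ only sites (red), shared sites (grey) and unfiltered peaks of the 6 Lin- libraries (blue) along Zeb2, Ncf4, Dock2 and F630028O10Rik, from gene start to gene end (x axis, kb), over the annotated exons (black). The 12 Ncf4 sites gather in 1 intron, and 10 of the 11 Dock2 sites lie close together. In both genes, shared sites and Lin- peaks lie among them.

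Host genes were highly expressed in both cell types. Their median rank was 90.5 in the CD11b+ table and 88.5 in the Lin- table, against 89.3 and 90.4 for hosts of shared sites. Of 1068 hosts with a value in both tables, 866 (81.1%) were within 10 rank points, 145 (13.6%) were over 10 points higher in CD11b+ and 57 (5.34%) over 10 points higher in Lin- cells. Among all 16011 genes with a mean of at least 10 counts in the CD11b+ table and a value in both, 17.7% and 11.6% were shifted in this way. This limit used CD11b+ counts only and was not set for the hosts, so the shares are not strictly comparable. Lin- libraries had a peak elsewhere in 818 of 1112 hosts (73.6%). The other 294 hosts, with 369 sites, had lower median ranks, 78.6 in CD11b+ and 70.1 in Lin- cells, and fewer cells of a type, less RNA per cell and less binding cannot be told apart for them.

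Of 16191 genes with a mean of at least 10 counts in CD11b+ cells, 1032 (6.37%) hosted a site. This is the background for the gene lists, in which expression and gene length were not matched. All but 1 list had a median of 0 sites per expressed gene, the same as over all genes, and the integrin list had 0.5. Among monocyte and macrophage transcription factor genes 6 of 18 (33.3%) hosted sites. Among them, Klf2 had 3 sites, Irf5 had 2 and Nr4a1 and Mitf had 1 each, beside Zeb2. The ranks of Klf2 were 93.7 in CD11b+ and 65.8 in Lin- cells, and those of Nr4a1 89.7 and 63.8. Irf5, a transcription factor of inflammatory macrophages, had an intronic site with 47, 10, 33 and 11 reads. Irf8 also hosted 2 sites but had no row in the table.

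Integrin and adhesion genes hosted sites in 10 of 20 cases (50%), with 18 sites. Itgam had 3. Its 3′UTR site at chr7:128117505-128117600 held GA and GT 6-mers and had 30, 109, 35 and 61 reads. A CA site further down the 3′UTR had 5, 12, 6 and 4 reads. Itgb2, which encodes the partner of CD11b in the integrin Mac-1, had a GA site with 21, 26, 23 and 17 reads, and a rank of 99.8 in CD11b+ and 95.9 in Lin- cells. Tln1 and Selplg had 3 sites each, and Selplg, the P-selectin ligand, had no Lin- peak. Surface and lysosome genes of macrophages hosted sites in 7 of 30 cases (23.3%), among them Csf1r, Ccr2, Lyz2, Fcgr2b and Fcgr3. Stretches of at most 30 nt around the repeats in 3′UTRs are printed to set the repeats there beside the intronic ones.
Itgam 3′UTR, within chr7:128117505-128117600, plus strand: gaaAGAGAGAGAGAGAaAGAGAGAGggaga
Itgam 3′UTR, within chr7:128118227-128118265, plus strand: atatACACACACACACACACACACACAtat
Cd33 3′UTR, within chr7:43527595-43527691, minus strand: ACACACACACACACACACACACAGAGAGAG
Zeb2 3′UTR, within chr2:44986169-44986202, minus strand: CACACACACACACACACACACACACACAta

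Chromatin genes hosted sites in 14 of 30 cases (46.7%), led by Baz2b with 7 and the methyltransferase gene Nsd1 with 4. Splicing factor genes did so in 12 of 33 (36.4%), with Luc7l2 and Son at 5 sites, Celf2 at 4 and Luc7l3 at 3. Celf2 encodes a protein that itself binds GU-rich RNA, and 3 of its 4 sites, which adjoin, held GA 6-mers. Genes of GTPase exchange and activating factors hosted sites in 10 of 29 cases (34.5%), with 25 sites, of which Dock2 had 11. Of Ras, MAPK and PI3K genes, 7 of 30 (23.3%) were hosts, with 8 sites in all, among them Map2k4, Mapk14, Pik3cg, Pik3r1, Pik3r5 and Akt1. Cyclin and survival genes hosted 5 sites in 5 of 16 cases (31.2%). The Bcl2 site held a GT repeat and had 6, 17, 11 and 7 reads, and Bcl2 ranked at 76.2 in CD11b+ and 98.0 in Lin- cells, so this site lay in a gene with the lower rank in CD11b+ cells.

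Of MLL-fusion targets and partners, 8 of 27 (29.6%) hosted sites. Myb, a target with a role in leukemic self-renewal, had 3 sites, all with a peak in all 4 libraries. Its 3′UTR site had 52, 42, 35 and 15 reads. Aff1, the mouse gene of the fusion partner, had 3 intronic sites, 2 of them with GT 6-mers, and none was in both technical libraries. The transduced fusion carries Af4 sequence, and Lin- libraries had 1490 peaks elsewhere in Aff1. Hoxa9 had 1, with 4 and 5 reads in the biological and no peak in the technical libraries. Among the IGF2BP family and partners, 5 of 14 (35.7%) were hosts with 1 site each. The site in an intron of Igf2bp3 itself held a GT repeat and had 9, 31, 15 and 27 reads. Ptbp1, the polypyrimidine tract-binding protein gene, had an intronic GT site with 18, 26, 20 and 10 reads, 4 nt from a Lin- peak. Of the m6A genes, 2 of 14 (14.3%) hosted a site, Zc3h13 and Alkbh5, and of the nuclear long non-coding RNA genes 1 of 10 (10%), Mirt1. Of the genes named by the study, 4 of 12 (33.3%) were hosts, among them Csf2rb, Notch1 and Hoxa9, a list that is not independent of these samples.
Igf2bp3 intron, chr6:49200550-49200581, minus strand: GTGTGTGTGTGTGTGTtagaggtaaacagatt
Ptbp1 intron, chr10:79861603-79861651, plus strand: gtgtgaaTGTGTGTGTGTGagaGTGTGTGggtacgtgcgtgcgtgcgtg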

How the data were processed

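The authors called CLIPper peaks per library on mm10, removed eCLIP peaks overlapping an input peak and kept a p-value of at most 0.05. The deposited peak files hold, per peak, gene, position, strand and this p-value. The number at the end of the peak name was read as reads. For another library, the reads of the largest overlapping filtered peak are given. The mean normalized count of each gene, a signal scaled by the authors for each cell type, was deposited as the mean over WT and I3KO libraries. The other columns of these tables (the authors' fold changes, errors, p-values and binding calls) were not used. The authors' processing notes name STAR 2.5.3a, Bowtie2 and DESeq2. Read depth per library is unknown.

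Overlaps (1 nt, same strand), GENCODE M21 basic annotation, 6-mers and Wilson intervals (95%) were computed with Python 3.11.15, pandas 2.3.3, NumPy 2.4.6, SciPy 1.17.1 and pysam 0.24.0 and tested on simulated data. Location was taken at the peak midpoint (3′UTR, coding, 5′UTR, other exon, intron). Sequence came from RefSeq's GRCm38. Library shares were compared by exact permutation.

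The sites and gene lists were chosen with earlier results of these data known. Named genes are the 12 with the most sites, those of the lists and the 10 sites with the smallest p found in all 4 libraries. The sites printed are the 2 with the most CA 6-mers among those found in all 4 libraries, outside UTRs, and sites picked from named genes, and the 2 each for GT and GA were added after the sequences were seen. Sites nearest to the limits of the rule were named too. Rnu1a1 was named after its overlap was seen, and other Gpx3 sites beside the one chosen. Some genes that these rules name are not reported here.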

Additional observations from a re-analysis of the deposited data

Results flagged for a closer look

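CA 6-mers occurred in 16.0% of the peaks of Lin- input replicate 4, while the next input of the group had 6.49% and the lowest 1.60%, so this library stood apart from the other Lin- inputs. It was found among 8 combinations of input group and measure, and chance marks about 1 in 20 such groups. Excluding all peaks of Lin- inputs too left 1624 sites, with CA 6-mers in 12.3%.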

How the results depend on the processing

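Of 168 alternative values, 16 moved beyond the limits set around the main value. Only the differences between CD11b+ and Lin- libraries could change sign, and none of them did. No comparison had passed 0.05 to begin with. The number of sites (1631) and host genes (1112) fell to 825 and 564 with a peak p under 0.001 in both replicates, and to 688 and 515 with a filtered peak in all 4 CD11b+ libraries, where GT and GA 6-mers rose to 40.0% and 23.5%. Leaving out each Lin- library in turn gave 1656 to 1887 sites in 1129 to 1253 genes. Requiring 0.5 of the site to be covered gave 66.9% and 48.6% found in technical replicates 3 and 4, and intronic sites without any exon overlap were 77.4%. CA motifs occurred in 18.5% as 4-mers and 10.9% as 8-mers, and GT motifs in 29.6% as 8-mers and 36.0% with 25 nt added. Within 50 and 200 nt of a splice site were 8.34% and 15.3%. The median host rank was 85.4 among genes with a mean of at least 10. Narrower or wider definitions take in fewer or more sites by construction, while the cause of the higher GT and GA shares was not tested.

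With technical libraries counted too, the differences between CD11b+ and Lin- cell-type-only peaks were 11.6 percentage points for CA, 6.92 for 3′UTRs, 25.9 for GT, 13.2 for GA and -58.5 for splice sites, each with an exact permutation p of 0.00476, but technical libraries are not independent and this p is too small. Leaving out CD11b+ biological replicate 1 or 2 gave 17.9 or 3.91 points for CA, against 10.9, and 3.22 or 11.7 for 3′UTRs, against 7.48. The intron difference of 12.9 was 2.8 without Lin- biological replicate 2, 7.33 without CD11b+ biological replicate 2 and at most 19.4. With 1 CD11b+ library left these are values with no test. GT was 27.8 without CD11b+ biological replicate 1 and lower than its 22.6 without replicate 2, while GA ranged from 11.5 to 13.1 and splice sites from -66.4 to -51.4. The replicate numbers give no pairing beyond a shared number. With the replicate block over replicates 1 and 2 the differences were 11.5 (CA), 7.31 (3′UTR), 16.7 (intron), 22.7 (GT), 12.3 (GA) and -55.9 (splice sites) points, and no p under 0.5 was possible.

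Peaks of few reads and unknown depth limit what the lack of a Lin- peak shows. Nothing says that biological replicates came from separate animals, so the p-values measure only the spread between these libraries.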
